A study of Mus musculus with 15 samples.

Results

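Messenger RNA of 35 genes that build ribosomes was followed in mouse hematopoietic stem cells (HSCs), the marrow cells from which every blood lineage is replenished. The genes were chosen by name as a module of ribosome biogenesis and RNA polymerase I. All 35 were found, of 46123 genes in the deposited tables, and each appeared there as a single copy. The 15 libraries fall into 4 groups, each library made from 100 sorted cells of wild-type C57BL/6 mice aged 8 to 10 weeks. The first is HSCs taken at day 4 after 5-fluorouracil (5-FU), a uracil analog that depletes cycling marrow cells (n = 4). The second is HSCs cultured with nifedipine, a blocker of L-type calcium channels (n = 4). The third is the cultured control without nifedipine (n = 3), and the last is HSCs of untreated mice (n = 4). Both cultured groups were sorted from cells that had divided no more than 3 times. The sources used here give no drug dose, culture length or vehicle.

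A ribosome begins in the nucleolus, where RNA polymerase I copies the repeated ribosomal DNA into a long precursor RNA. Small nucleolar ribonucleoproteins (snoRNPs) then guide chemical changes on that RNA, and a large set of assembly factors folds and cuts it into the 40S and 60S subunits. Stem cells of adult bone marrow mostly rest and are known for a low rate of protein synthesis, and dividing cells need many new ribosomes. The values here are mRNA levels of the factors, not of ribosomal RNA or ribosomes.

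Depth ranged from 9775640 to 17397392 exon reads in 5-FU libraries, from 17582453 to 22372771 with nifedipine, from 20145079 to 26673045 in cultured controls and from 6171730 to 16685285 in untreated libraries. Each of the 35 genes had at least 54 reads in every library. Levels are given as CPM, exon read counts scaled to library size after TMM, and a gene was called when edgeR's quasi-likelihood test, fitted on all genes, gave a Benjamini-Hochberg adjusted p of 0.05 or less. No label states separate animals or cultures for the replicates, so each p-value covers just the spread among these libraries, which may be technical. All 10 HSC markers looked at, among them Procr, Fgd5 and Hlf, had reads in every library, though their levels differed between groups. In controls 9 of the 10 were called lower than in untreated HSCs, where 36.1% of tested genes were. Procr was at 4.89 to 7.79 CPM in controls and 84.4 to 101 CPM in untreated HSCs, while Slamf1 was not called. In bulk samples, fewer cells of a type and less RNA per cell cannot be told apart. The untreated libraries were not alike in markers of other cells. The sum of 10 erythroid genes was 255 to 340 CPM after 5-FU, 106 to 165 with nifedipine and 216 to 267 in controls. It was 1911 and 2134 CPM in untreated 2 and 4, against 72.2 and 88.2 CPM in untreated 1 and 3. Hba-a1 had 0 reads in all 5-FU and control libraries, and outside untreated HSCs most of the sum was Hbb-bt. Gata1 was at 7.19 to 12.7 CPM in controls and 0 to 0.101 with nifedipine. It was at 0.0989 to 0.571 CPM after 5-FU and 0 to 0.26 in untreated HSCs. Gata1 and Epor were called higher in controls than in untreated HSCs, while 5 of the 8 erythroid genes tested were called lower. With nifedipine 4 of 5 tested, Gata1 and Epor among them, were called lower than in controls and 0 higher. The sum of 10 endothelial and stromal genes was 98.8 to 451 CPM after 5-FU, 134 to 166 with nifedipine, 143 to 168 in controls and 133 to 1681 in untreated HSCs, highest in 5-FU 4 and untreated 2. Untreated 2 and 4 were also the lowest of their group in 14 and 17 of the 35 ribosome biogenesis genes, where they were lowest in 29.7% and 27.4% of tested genes. The part of other cells in the results was not tested, and values without these libraries are given beside them.

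At day 4 after 5-FU, nearly the whole module was higher than in untreated HSCs. Of the 35 genes, 34 were called higher and 0 lower, where 26.7% of 13384 tested genes were called higher and 23.8% lower. The median log2 fold change of the 35 was 0.71 (1.63-fold), against −0.02 over all tested genes. It ran from 0.21 for Rrp9, the only gene not called, to 1.22 for Pno1. In 32 genes every 5-FU library lay above every untreated library, as did 24.1% of tested genes. The genes that overlapped were Rrp9, Nop14 and Bysl. Without untreated 2 and 4, 31 were called higher, with a median of 0.57, where 21.5% of tested genes were called higher. Rrp9, Nop14 (adjusted p = 0.117), Bysl (adjusted p = 0.0848) and Rrs1 (adjusted p = 0.0741) were then not called. Without 5-FU 4, the median was 0.71 and all but Rrp9 and Nop14 were called higher, where 24.9% of tested genes were. With the read total behind the deposited RPKM values as library size, 38.5% of tested genes were called higher and 13.7% lower, and the median was 0.91 for the 35 genes and 0.17 over all tested genes. Exon reads were 30% to 31.9% of that total after 5-FU, 31.8% to 38.4% with nifedipine, 35.5% to 38.9% in controls and 25% to 26.3% in untreated libraries. This share was thus higher, without overlap, after 5-FU and in controls than in untreated HSCs, as the module was, and its part in the results was not tested.

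With nifedipine, the whole module was lower than in cultured control HSCs. All 35 genes were called lower and 0 higher, where 24.2% of 12807 tested genes were called lower and 25.8% higher. Their median log2 fold change was −0.77, or 0.587 times the control level, against 0.02 over all tested genes. The change ran from −1.29 for Mrto4 to −0.33 for Wdr12. In each of the 35 genes all 4 nifedipine libraries lay below all 3 controls, which was so in 25.5% of tested genes.

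Cultured control HSCs stood highest of all. Set against untreated HSCs, all 35 genes were called higher, where 35.8% of 13520 tested genes were called higher and 36.1% lower. The median log2 fold change was 1.41 (2.66-fold), against −0.05 over all tested genes, and ran from 0.69 for Nat10 to 2.27 for Pno1. In each of the 35 genes every control library lay above every untreated one, as in 34.6% of tested genes, while in 37.4% every control library lay below. Without untreated 2 and 4, all 35 were still called higher, with a median of 1.27. When libraries were sized by the RPKM read total, 43.3% of tested genes were called higher and 28.4% lower. Culture, division history and experiment cannot be told apart in this comparison, and it shares the untreated libraries with the 5-FU comparison.

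**Figure D1:**
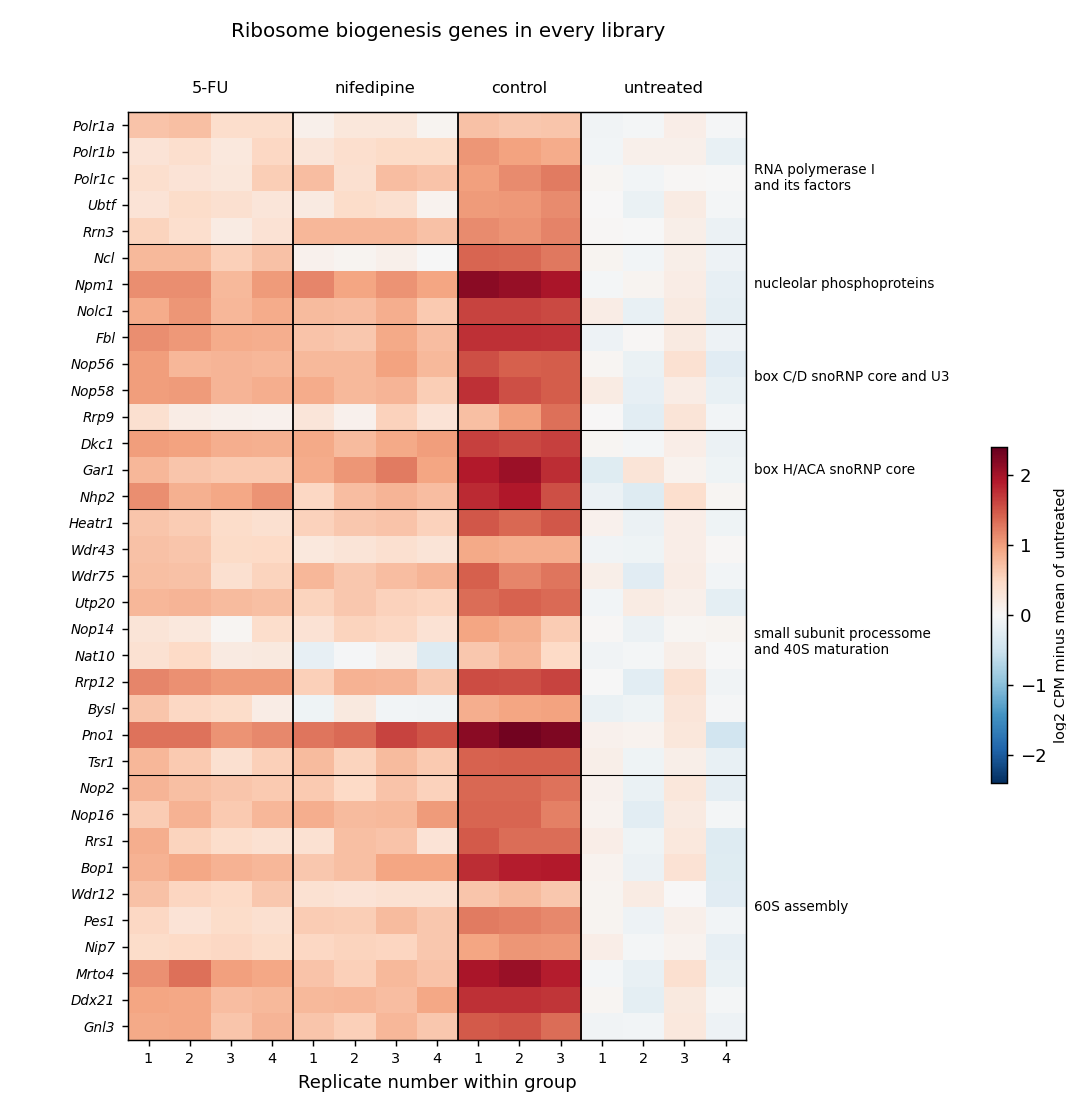
Level of each of the 35 genes (rows, grouped by role) in each of the 15 libraries (columns, by group), as log2 CPM minus the mean log2 CPM of the 4 untreated libraries. Red is higher and blue lower than untreated. The cultured controls are the darkest columns, and Nat10, Bysl and Ncl are near white with nifedipine.

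**Figure D2:**
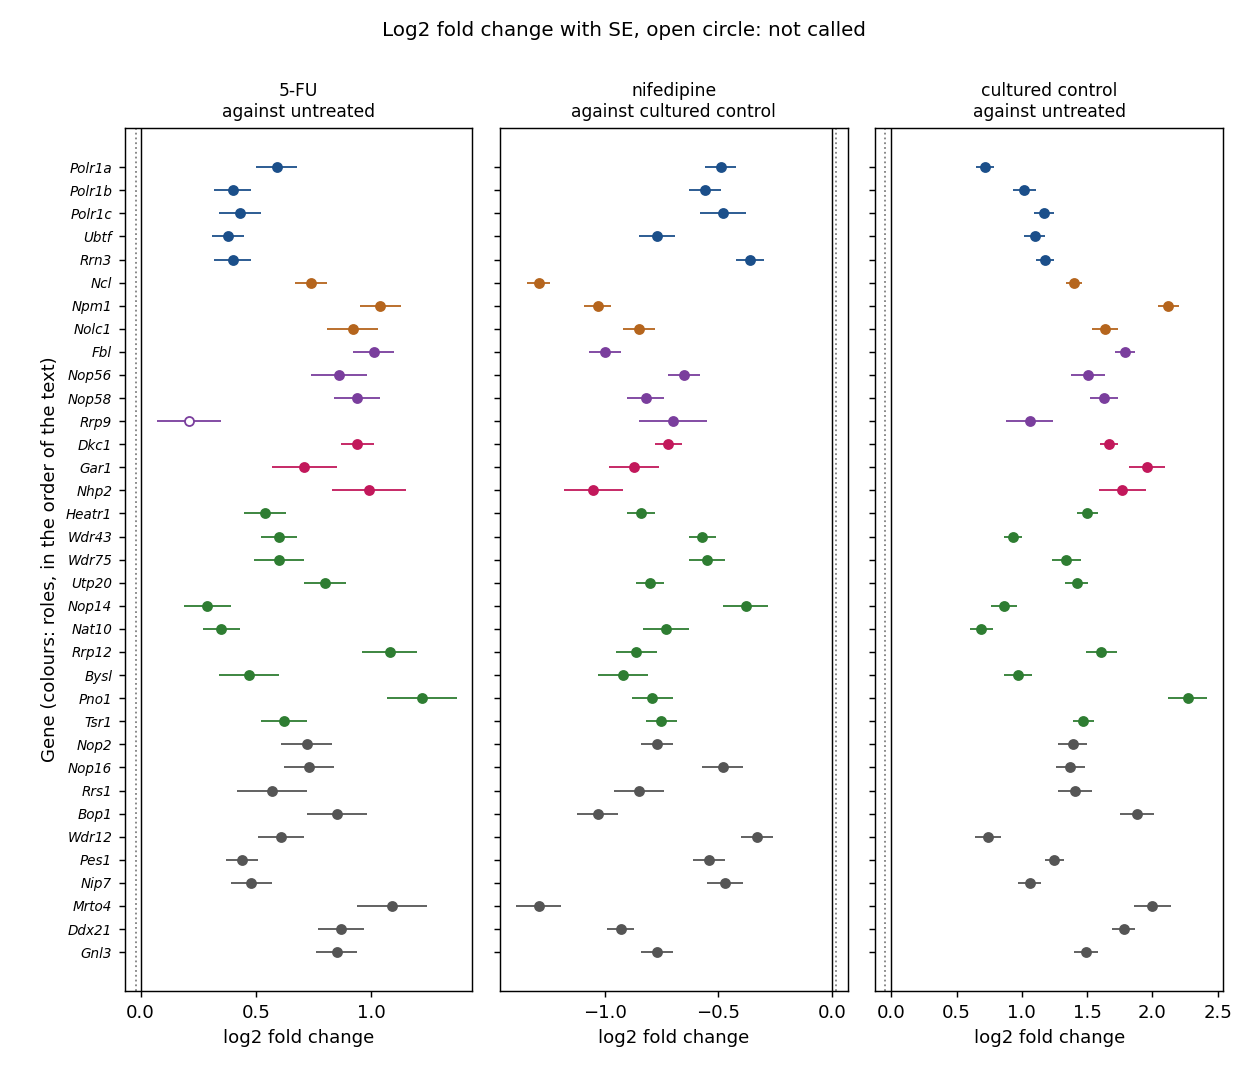
Log2 fold change (horizontal axis) of each gene (vertical axis) with its SE in the 3 comparisons, coloured by role; the dotted line is the median of all tested genes and the open circle, Rrp9, was not called. All 35 genes lie right of 0 in the 5-FU and culture panels and left of 0 in the nifedipine panel.

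Among the roles, the chosen RNA polymerase I subunits and factors had the smallest median changes. The 5 genes had a median log2 fold change of 0.40 after 5-FU, −0.49 with nifedipine and 1.10 in culture, and all 5 were called in each comparison. Polr1a, on mm10 chromosome 6 from 71909053 to 71979435, encodes the largest, catalytic subunit. It had 144, 148, 121 and 121 CPM after 5-FU, against 84.8, 87.3, 100 and 88.9 CPM in untreated HSCs. Its levels with nifedipine were 97.8, 109, 109 and 94.6 CPM, against 147, 141 and 143 CPM in cultured controls. The groups of each pair were apart, and the 5-FU libraries reached the cultured control level, which no other gene of the role did. The log2 fold change was 0.59 ± 0.09 (SE) after 5-FU (adjusted p = 0.000243) and −0.49 ± 0.07 with nifedipine (adjusted p = 2.2e-05).

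Polr1b, the gene of the next largest subunit, had 102, 108, 96.6 and 115 CPM after 5-FU, against 77.5, 88.6, 88.4 and 72.1 CPM in untreated HSCs. Its levels were 99.7, 107, 112 and 112 CPM with nifedipine and 170, 158 and 151 CPM in controls. Neither pair overlapped, and the nifedipine libraries fell among the 5-FU ones. The log2 fold changes were 0.40 ± 0.08 and −0.56 ± 0.07 (adjusted p = 0.00261 and 3.35e-06). Polr1c encodes a subunit that RNA polymerase I shares with RNA polymerase III. After 5-FU it had 44.3, 42, 40.6 and 50.2 CPM, against 34.6, 32.1, 33.9 and 33.1 CPM in untreated HSCs. Nifedipine libraries had 55.6, 43.5, 55.6 and 53.9 CPM, against 65.8, 73.3 and 79.3 CPM in controls. The groups were again apart, with 1 low nifedipine library. Its log2 fold changes were 0.43 ± 0.09 after 5-FU (adjusted p = 0.00199) and −0.48 ± 0.10 with nifedipine (adjusted p = 0.000561). The 5-FU call of Polr1c was lost when the trend of each library with exon length was removed. Its log2 fold change was then 0.21 (adjusted p = 0.0555), and whether that trend is technical was not tested.

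Ubtf, on chromosome 11 from 102304563 to 102320862, encodes the upstream binding factor, which coats active ribosomal DNA repeats. It had 127, 136, 131 and 124 CPM after 5-FU, against 102, 89.8, 115 and 97.9 CPM in untreated HSCs. Nifedipine libraries had 117, 137, 132 and 107 CPM, against 204, 207 and 220 CPM in controls. The 5-FU group lay just above the untreated one, while the nifedipine group lay far below its controls. Ubtf had the largest nifedipine change of the role, a log2 fold change of −0.77 ± 0.08 (adjusted p = 3.17e-07), and the smallest 5-FU change, 0.38 ± 0.07 (adjusted p = 0.00165). Rrn3, on chromosome 16 from 13780699 to 13814841, encodes TIF-IA, the factor that makes RNA polymerase I able to start. It had 120, 110, 95.6 and 105 CPM after 5-FU, against 84.3, 81.9, 91 and 75.2 CPM in untreated HSCs. Under nifedipine it had 144, 144, 144 and 135 CPM, against 181, 176 and 189 CPM in controls. Every nifedipine library was above every 5-FU library here, a difference that was not tested. The log2 fold change was 0.40 ± 0.08 after 5-FU (adjusted p = 0.0024) and −0.36 ± 0.06 with nifedipine (adjusted p = 0.000134), the smallest nifedipine change of the role.

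The hexamer CACGTG, the E-box that MYC family factors are known to bind, was looked for in the promoters of these genes because the genes move together. RefSeq promoter windows on GRCm38.p6, from 250 bases before to 30 bases after the start, were at hand for 30 of the 35 genes. Bop1, Fbl, Npm1, Rrp12 and Rrs1 had none. A gene counted as a match when any window of that gene held the motif. The hexamer reads the same on both strands and was found for 5 of 30 genes (16.7%), Nop2, Pes1, Rrn3, Tsr1 and Wdr43. It was found for 11% of 10191 tested genes and 7.71% of all 27025 genes with windows. Of the 5 genes, 1 is shown for each role that has a match. The capitals mark CACGTG. In Rrn3 it begins at bases −215 and −48 relative to the start, in Tsr1 at base 25 and in Nop2 at base −60. The windows are chr16:13780449-13780728 for Rrn3, chr11:74897830-74898109 for Tsr1 and chr6:125131633-125131912 for Nop2, all on the plus strand.
Rrn3: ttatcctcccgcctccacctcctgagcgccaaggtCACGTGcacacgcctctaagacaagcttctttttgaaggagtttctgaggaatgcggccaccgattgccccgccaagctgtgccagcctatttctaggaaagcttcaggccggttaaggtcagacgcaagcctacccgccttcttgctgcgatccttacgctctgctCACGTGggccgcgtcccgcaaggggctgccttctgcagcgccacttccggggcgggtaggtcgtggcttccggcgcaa
Tsr1: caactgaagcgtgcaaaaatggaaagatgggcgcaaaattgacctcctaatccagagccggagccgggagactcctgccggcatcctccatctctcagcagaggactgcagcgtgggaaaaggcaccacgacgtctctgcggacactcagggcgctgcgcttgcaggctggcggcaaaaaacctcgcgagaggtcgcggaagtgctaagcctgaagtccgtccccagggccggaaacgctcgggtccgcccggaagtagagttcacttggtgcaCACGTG
Nop2: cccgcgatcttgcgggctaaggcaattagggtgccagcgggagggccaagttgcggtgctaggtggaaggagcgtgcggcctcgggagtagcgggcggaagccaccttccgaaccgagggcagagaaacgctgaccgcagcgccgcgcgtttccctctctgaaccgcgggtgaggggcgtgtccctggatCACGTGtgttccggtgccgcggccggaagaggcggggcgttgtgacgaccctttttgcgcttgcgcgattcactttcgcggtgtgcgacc
Other motifs were searched on both strands of the same windows. CCGGAAG, a core bound by ETS factors, was found for 9 of 30 genes (30%), Gar1, Heatr1, Nhp2, Nip7, Nolc1, Nop2, Polr1c, Rrn3 and Tsr1. It was found for 18.5% of tested genes and 9.48% of all genes with windows. The NRF1 motif, GCGC and GCGC with NN between them, was in 5 (16.7%, against 13.8% and 6.63%), CCAAT in 10 (33.3%, against 42.4% and 39.7%) and TATAAA in 2 (6.67%, against 8.55% and 15.1%). The median GC content of the windows was 59.1% in the 30 genes and 61.4% in tested genes. A match is a description of these letters and does not show a bound site.

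The nucleolar phosphoproteins had the largest median change with nifedipine of any role. Their median log2 fold change was 0.92 after 5-FU, −1.03 with nifedipine and 1.64 in culture, with all 3 genes called each time. Npm1, on chromosome 11 from 33152498 to 33163206, encodes nucleophosmin, a chaperone of nucleolar assembly. It had 773, 764, 612 and 720 CPM after 5-FU, against 343, 369, 404 and 310 CPM in untreated HSCs. The nifedipine levels were 804, 680, 751 and 682 CPM, against 1586, 1508 and 1388 CPM in controls. The 5-FU and nifedipine libraries overlapped, and both pairs of groups compared were wide apart. It was 2.05-fold higher after 5-FU (log2 fold change 1.04 ± 0.09, adjusted p = 1.33e-05) and at 48.8% of control with nifedipine (−1.03 ± 0.06, adjusted p = 6.63e-10).

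Ncl, on chromosome 1 from 86344719 to 86359455, encodes nucleolin, an RNA-binding protein of the nucleolus that takes part in transcription and first processing of the precursor. It had 876, 870, 763 and 836 CPM after 5-FU, against 532, 485, 561 and 469 CPM in untreated HSCs. Nifedipine libraries had 545, 531, 555 and 507 CPM, against 1352, 1333 and 1228 CPM in cultured controls. With nifedipine Ncl lay within the range of untreated HSCs, below every 5-FU library. The log2 fold change was 0.74 ± 0.07 after 5-FU (adjusted p = 1.4e-05). With nifedipine it was −1.29 ± 0.05 (adjusted p = 9.56e-12), the smallest adjusted p of the 35 genes. Nolc1, a partner of snoRNPs, averaged 113 ± 9.13 CPM after 5-FU and 60.2 ± 9.52 CPM in untreated HSCs (SD, n = 4 each). It averaged 101 ± 6.54 CPM with nifedipine (n = 4) and 181 ± 3.36 CPM in controls (n = 3). Its log2 fold changes were 0.92 ± 0.11 after 5-FU and −0.85 ± 0.07 with nifedipine.

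The box C/D snoRNPs place methyl groups on ribosomal RNA. Their 4 genes had median log2 fold changes of 0.90 after 5-FU, −0.76 with nifedipine and 1.57 in culture, and 3 were called higher, 4 lower and 4 higher in turn. Fbl, on chromosome 7 from 28169748 to 28179269, encodes fibrillarin, the methyltransferase. It had 166, 157, 142 and 140 CPM after 5-FU, against 70.4, 78.2, 88.2 and 70.2 CPM in untreated HSCs. Its levels with nifedipine were 122, 120, 143 and 127 CPM, against 258, 256 and 253 CPM in controls. All groups compared were apart, and Fbl was 2.01-fold higher after 5-FU and at 50.1% of control with nifedipine. The log2 fold change after 5-FU was 1.01 ± 0.09 (adjusted p = 1.17e-05), and the nifedipine difference had an adjusted p of 2.64e-09 (SE 0.07 on the log2 scale). Nop56 and Nop58, the paired core proteins that hold the guide RNA, were called in the same directions. Their log2 fold changes were 0.86 ± 0.12 and 0.94 ± 0.10 after 5-FU, and −0.65 ± 0.07 and −0.82 ± 0.08 with nifedipine.

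Rrp9, which encodes a protein of the U3 snoRNP that starts small subunit processing, was the exception of the module. It had 19, 16.4, 15.8 and 15.7 CPM after 5-FU, against 14.6, 12.2, 18.1 and 13.9 CPM in untreated HSCs. These groups overlapped through untreated 3, and the log2 fold change was 0.21 ± 0.14 (adjusted p = 0.247). With the read total behind the deposited RPKM values as library size, it was 0.41 (adjusted p = 0.0462). With nifedipine Rrp9 had 17.9, 15.7, 21.3 and 18.3 CPM, against 24, 28.8 and 36.3 CPM in controls. Those groups were apart although the 3 controls spread widely, with a log2 fold change of −0.70 ± 0.15 (adjusted p = 0.000674).

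The box H/ACA snoRNPs turn uridines of ribosomal RNA into pseudouridines, and their proteins also sit on telomerase RNA. The 3 genes had median log2 fold changes of 0.94, −0.87 and 1.77 in the 5-FU, nifedipine and culture comparisons, and all were called. Nhp2, a core protein that binds the RNA, had 21.6, 18, 18.8 and 20.9 CPM after 5-FU, against 9.03, 8.06, 13.1 and 10.2 CPM in untreated HSCs. Nifedipine libraries had 14.1, 16.5, 17.5 and 16.6 CPM, against 34.2, 37.4 and 28.9 CPM in controls. Both pairs were apart, with untreated 3 the highest of its group. The log2 fold changes were 0.99 ± 0.16 (adjusted p = 0.000524) and −1.05 ± 0.13 (adjusted p = 2.19e-06).

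Gar1, another core protein, had 25.3, 23, 22.5 and 22.4 CPM after 5-FU, against 11.8, 17.9, 15.4 and 13.5 CPM in untreated HSCs. Under nifedipine it had 26.7, 30.3, 34.4 and 28 CPM, against 54.3, 59.7 and 49.6 CPM in controls. Its cultured libraries all lay above its fresh ones, nifedipine included. The log2 fold changes were 0.71 ± 0.14 after 5-FU (adjusted p = 0.00168) and −0.87 ± 0.11 with nifedipine (adjusted p = 2.85e-06). Dkc1, on the X chromosome, encodes dyskerin, the pseudouridine synthase. It averaged 189 ± 10.9 CPM after 5-FU and 100 ± 9.24 CPM in untreated HSCs, and its log2 fold change of 0.94 ± 0.07 had the smallest adjusted p of the 35 genes in that comparison, 7.18e-06. With nifedipine Dkc1 changed by −0.72 ± 0.06.

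**Figure D3:**
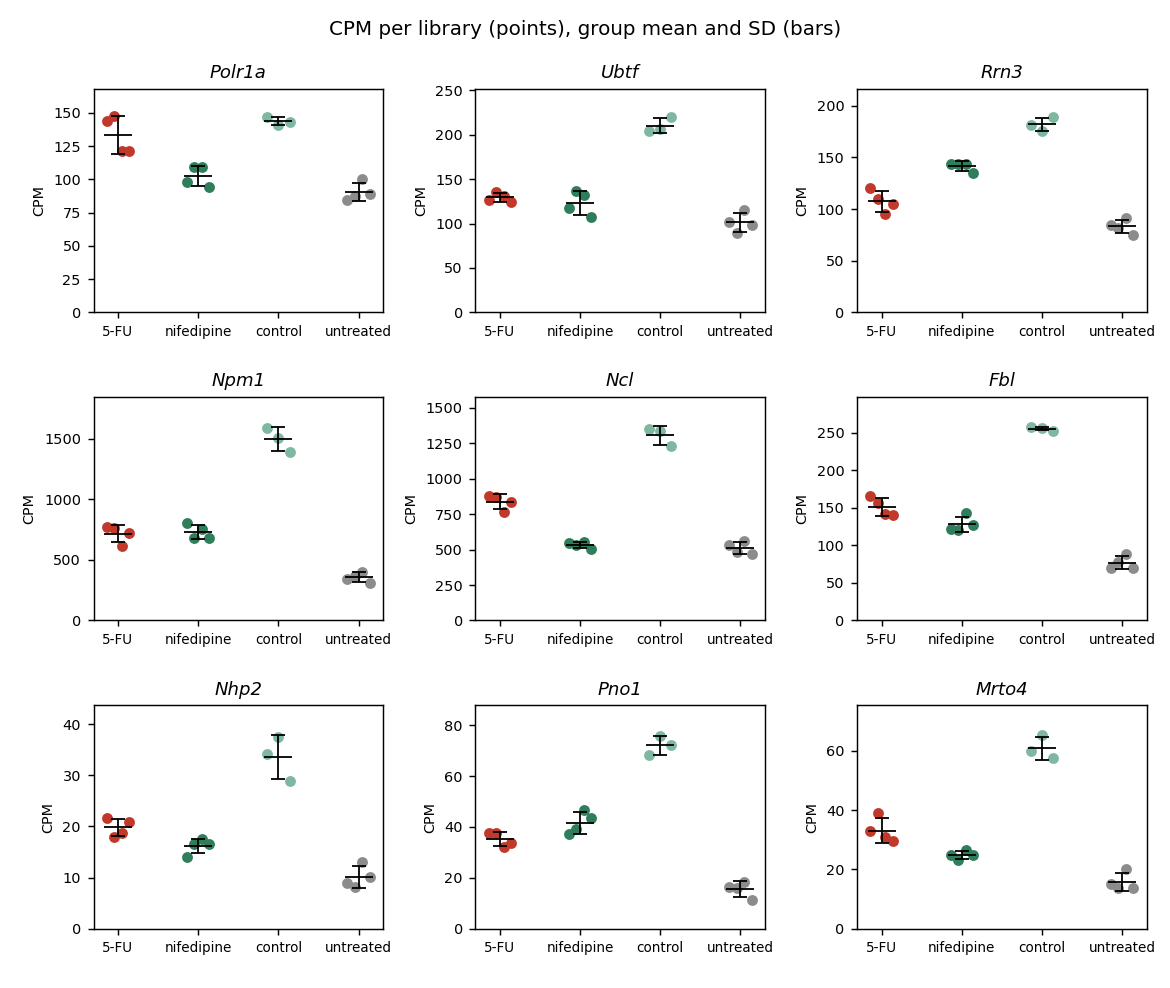
CPM (vertical axes, from 0) of 9 genes in each library (points) of the 4 groups (horizontal axes), with the group mean and SD as bars. Ncl with nifedipine falls in the untreated range, Rrn3 with nifedipine lies above the 5-FU libraries, and Polr1a after 5-FU reaches the cultured controls.

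The small subunit processome and 40S maturation factors spanned the widest range at day 4. All 10 were called higher after 5-FU (median log2 fold change 0.60), lower with nifedipine (−0.77) and higher in culture (1.38). Pno1, on chromosome 11 from 17203198 to 17211589, acts at the end of the small subunit RNA and had the largest change of the module in both comparisons with untreated HSCs. It had 37.8, 37.7, 32.3 and 33.7 CPM after 5-FU, against 16.3, 16.1, 18.5 and 11.1 CPM in untreated HSCs. The nifedipine levels were 37.2, 39.1, 46.6 and 43.5 CPM, against 68.3, 75.7 and 72.3 CPM in controls. Pno1 with nifedipine stayed well above untreated HSCs and overlapped the 5-FU group. The log2 fold changes were 1.22 ± 0.15 after 5-FU (adjusted p = 9.14e-05), −0.79 ± 0.09 with nifedipine (adjusted p = 1.68e-06) and 2.27 ± 0.15 in culture (adjusted p = 7.15e-07).

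Nop14, a processome factor, was the least changed of those called after 5-FU. It had 39.7, 38.3, 33.2 and 42.7 CPM after 5-FU, against 32.5, 29.1, 33.1 and 33.4 CPM in untreated HSCs. The groups overlapped through 5-FU 3, and the log2 fold change was 0.29 ± 0.10 (adjusted p = 0.0291). That call was lost in 5 of the 8 fits that left out 1 library each: without untreated 1 or 2 (adjusted p = 0.0557 and 0.0633) and without 5-FU 1, 2 or 4 (0.0733, 0.0577 and 0.0758). With nifedipine Nop14 had 40.5, 46.4, 45.2 and 40.6 CPM, against 61.6, 57.6 and 49.1 CPM in controls. These were apart, with a log2 fold change of −0.38 ± 0.10 (adjusted p = 0.00392), the largest adjusted p of the 35 in that comparison.

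Heatr1, Wdr43 and Wdr75 belong to the part of the processome that in human cells also aids transcription of ribosomal DNA. Their log2 fold changes lay close to each other after 5-FU, at 0.54 ± 0.09, 0.60 ± 0.08 and 0.60 ± 0.11. With nifedipine Heatr1 changed by −0.84 ± 0.06, Wdr43 by −0.57 ± 0.06 and Wdr75 by −0.55 ± 0.08. Utp20 and Rrp12, larger processing and export factors, changed by 0.80 ± 0.09 and 1.08 ± 0.12 after 5-FU and by −0.80 ± 0.06 and −0.86 ± 0.09 with nifedipine. Tsr1, a late 40S factor, changed by 0.62 ± 0.10 and −0.75 ± 0.07. All of these were called.

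Nat10 and Bysl were the only genes of the 35 whose nifedipine mean was below the untreated mean. Nat10 encodes the acetyltransferase that modifies small subunit RNA, and Bysl a factor that travels with the maturing 40S particle. Nat10 had 68, 76.3, 85.5 and 63.2 CPM with nifedipine, against 122, 135 and 109 CPM in controls, and its untreated libraries had 73.6, 75.5, 85.9 and 77.7 CPM. Bysl had 23.4, 29.9, 24.2 and 23.9 CPM with nifedipine, against 46.3, 48.7 and 49.2 CPM in controls, and its untreated libraries had 22.7, 23.4, 30.9 and 24.8 CPM. For both genes the nifedipine libraries overlapped the untreated ones, as they did for Ncl, Polr1a, Rrp9 and Ubtf, while in the other 29 every nifedipine library was above every untreated one. Their log2 fold changes after 5-FU were 0.35 ± 0.08 and 0.47 ± 0.13. Their nifedipine changes were −0.73 ± 0.10 (adjusted p = 6.73e-06) and −0.92 ± 0.11 (adjusted p = 1.53e-06).

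All 10 60S assembly factors were called higher after 5-FU and lower with nifedipine. Their median log2 fold change was 0.72 after 5-FU, −0.77 with nifedipine and 1.40 in culture. Mrto4, on chromosome 4 from 139347440 to 139352576, encodes a protein of the early 60S particle. It had 33.1, 39, 30.8 and 29.5 CPM after 5-FU, against 15.1, 13.7, 20.2 and 13.9 CPM in untreated HSCs. Its levels with nifedipine were 25, 23.1, 26.6 and 24.9 CPM, against 60.1, 65.2 and 57.6 CPM in controls. The 4 nifedipine values were tight and well under the controls, yet above all untreated libraries. Mrto4 changed by 1.09 ± 0.15 on the log2 scale after 5-FU (adjusted p = 0.000159) and by −1.29 ± 0.10 with nifedipine (adjusted p = 6.46e-09), where it was at 40.9% of control. The tables also list pseudogenes of Mrto4, and the sources used here do not say how reads of such copies were assigned.

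Pes1, Bop1 and Wdr12 encode the 3 partners of the PeBoW complex, which is needed to mature the large subunit RNA. Pes1 had 84.3, 75.8, 81.8 and 78.6 CPM after 5-FU, against 62.7, 55.3, 65 and 57.6 CPM in untreated HSCs. Nifedipine libraries had 91.5, 90.7, 102 and 94.5 CPM, against 143, 138 and 134 CPM in controls. All pairs were apart and the spread within groups was small. Pes1 changed by 0.44 ± 0.07 after 5-FU (adjusted p = 0.000498), the least of the role, and by −0.54 ± 0.07 with nifedipine (adjusted p = 4.36e-06). Of its partners, Bop1 changed by 0.85 ± 0.13 after 5-FU and by −1.03 ± 0.09 with nifedipine, and Wdr12 by 0.61 ± 0.10 and −0.33 ± 0.07. Wdr12 averaged 116 ± 9.04 CPM after 5-FU, close to the 124 ± 6.03 CPM of cultured controls, and 77.6 ± 9.94 CPM in untreated HSCs.

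Ddx21, an RNA helicase that also acts with RNA polymerase I, averaged 272 ± 17 CPM with nifedipine and 517 ± 7.48 CPM in controls, a log2 fold change of −0.93 ± 0.06, and changed by 0.87 ± 0.10 after 5-FU. Gnl3 encodes nucleostemin, a nucleolar GTPase known from stem cells, and averaged 169 ± 13.5 CPM after 5-FU and 95.6 ± 12.2 CPM in untreated HSCs, a log2 fold change of 0.85 ± 0.09, and changed by −0.77 ± 0.07 with nifedipine. Nop2, a methyltransferase of the large subunit RNA, changed by 0.72 ± 0.11 after 5-FU and −0.77 ± 0.07 with nifedipine. Nop16, Rrs1 and Nip7 changed by 0.73 ± 0.11, 0.57 ± 0.15 and 0.48 ± 0.09 after 5-FU, and by −0.48 ± 0.09, −0.85 ± 0.11 and −0.47 ± 0.08 with nifedipine.

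The order of the group means was the same in most of the module. Cultured control was above 5-FU and 5-FU above untreated in 35 of 35 genes, an order that 32.3% of 12555 genes tested in all 3 fits shared. Nifedipine lay below cultured control and above untreated in 33 of 35 genes (31.5% of those genes), the exceptions being Nat10 and Bysl. Nifedipine was above 5-FU in 14 of 35 (51.2%), so these groups had no common order. The differences between 5-FU and the cultured groups, and between nifedipine and untreated, were not tested. Across the 35 genes, the 5-FU and nifedipine changes, which share no libraries, had a Pearson correlation of −0.58 and a Spearman correlation of −0.61. The 35 points share the libraries of each comparison and are not independent. The correlation over all tested genes was not computed, so these values cannot be read as particular to the module. The log2 exon length of the 35 genes had a Pearson correlation of −0.33 with the 5-FU change, 0.12 with the nifedipine change and −0.47 with the culture change. With a correction for exon length, 33 genes were called higher after 5-FU.

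On a scale of CPM per kilobase of exon, Npm1 had the highest level of the 35 genes and Fbl the next in each of the 4 groups. Ncl came after them except with nifedipine, where its 61.4 was below the 78.8 of Gnl3, 76.6 of Nop58, 69.6 of Nop56 and 63.3 of Dkc1. The exon length used for Ncl, recovered from the deposited RPKM values, was 8706 bases. A shorter length would raise its level and could raise its rank. Npm1, Fbl and Ncl were at 870, 221 and 150 in cultured controls, and at 207, 66.2 and 58.8 in untreated HSCs. Bysl had the lowest level, 12.5 in cultured controls and 6.61 in untreated HSCs. Within groups, the median coefficient of variation of the 35 genes was 8% after 5-FU, 7.08% with nifedipine, 4.62% in controls and 12.8% in untreated HSCs. Untreated 3 was the highest library of its group in 26 of 35 genes, where it was highest in 32.7% of tested genes. Without untreated 3, the count of 34 genes called higher after 5-FU was the same, with a median log2 fold change of 0.73.

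Genes of cell division were called higher in the same 2 comparisons as the module, and in both directions with nifedipine. The sum of 10 mitosis genes, Mki67 and Top2a among them, was 2613 to 3013 CPM after 5-FU, 1867 to 2142 with nifedipine, 2692 to 2938 in cultured controls and 158 to 704 in untreated HSCs, where untreated 3 had 704. The summed level of the 35 genes was 4580 to 5281 CPM after 5-FU, 4416 to 4723 with nifedipine, 7967 to 8439 in controls and 2752 to 3399 in untreated HSCs. The mitosis sums of 5-FU and control libraries overlapped, while their ribosome biogenesis sums did not. Single mitosis genes differed in both directions within that overlap. Mki67 was at 1151 to 1309 CPM after 5-FU and 1474 to 1524 CPM in controls, and Top2a at 771 to 905 and 408 to 585 CPM. These differences were not tested. Among all tested genes, 26.7% were called higher and 23.8% lower after 5-FU. The shares were 25.8% and 24.2% with nifedipine, and 35.8% and 36.1% in culture. All 10 mitosis genes were called higher after 5-FU and in culture. With nifedipine 5 were called lower (Mki67, Ccnb2, Plk1, Birc5 and Ccnb1) and 1, Top2a, higher, while Aurkb, Cdk1, Kif11 and Ube2c were not called. The HSC marker sum went the other way, at 3313 to 3590 CPM after 5-FU, 2324 to 2597 with nifedipine, 1425 to 1522 in controls and 4749 to 5064 in untreated HSCs. Of the 10 HSC markers, 7 were called lower after 5-FU and 9 in culture. With nifedipine 8 were called higher and 1, Slamf1, lower. A sum of 10 granulocyte and monocyte genes was 138 to 144 CPM after 5-FU, 211 to 235 with nifedipine, 62.5 to 80.6 in controls and 155 to 185 in untreated HSCs. Most of it was Lyz2, and Mpo and Elane were at 0 in all nifedipine and control libraries. Of 4 tested with nifedipine, Lyz2, Itgam and Csf1r were called higher and Prtn3 was not called. Itgam and Csf1r were low, at 0.935 to 1.96 and 1.03 to 4.5 CPM with nifedipine. All 5 tested in culture were called lower. A sum of 6 megakaryocyte genes was 123 to 257 CPM with nifedipine and 265 to 438 CPM in controls. Among them, Itga2b was at 16.3 to 17.4 CPM with nifedipine, 77.1 to 127 in controls and 16.3 to 26.2 in untreated HSCs. Of 5 tested, 4 were called lower with nifedipine and 0 higher. In culture Itga2b and Pf4 were called higher and Vwf lower. The part of such cells, of cell division or of cell identity in the results was not tested.

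**Figure D4:**
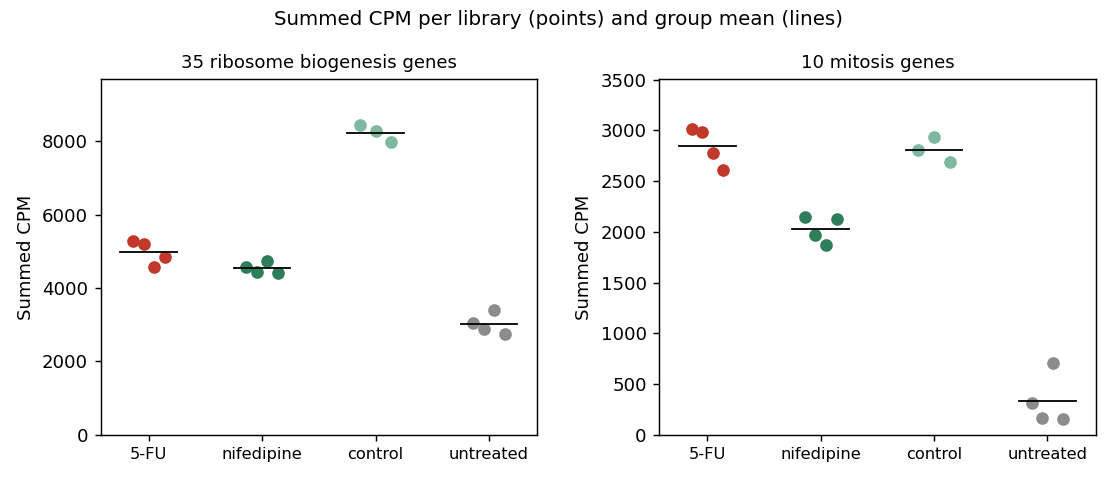
Summed CPM (vertical axes, from 0) of the 35 ribosome biogenesis genes (left) and of 10 mitosis genes (right) in each library (points) with the group mean (line). 5-FU and control libraries lie together in the mitosis sum on the right, though not in each mitosis gene, and apart on the left.

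Other factors of the same pathway, from lists that do not hold the 35 genes, were mostly called in the same directions. Over all tested genes, 26.7% were called higher after 5-FU, 24.2% lower with nifedipine and 35.8% higher in culture. Of 41 other small subunit factors tested, 28 were called higher after 5-FU and 1, Riok1, lower (−0.38 ± 0.11, adjusted p = 0.0158), with a median log2 fold change of 0.35. With nifedipine 35 of these 41 were called lower and 0 higher (median −0.53). Of 40 other 60S factors, 30 were called higher after 5-FU and 0 lower (median 0.39), and 38 were called lower with nifedipine and 0 higher (median −0.50). Tbl3, a processome protein, changed by 0.97 ± 0.10 after 5-FU and −0.97 ± 0.08 with nifedipine. Ppan, a 60S factor, was called with nifedipine (−0.86 ± 0.09) and not after 5-FU (−0.00 ± 0.10, adjusted p = 0.97). Of 14 RNA exosome genes, which trim precursor RNA, 13 were called higher after 5-FU (median 0.70) and 13 lower with nifedipine (median −0.51). The proteins of RNase MRP and RNase P gave 5 higher after 5-FU and 6 lower with nifedipine of 9 tested, and those of snoRNP assembly gave 7 and 7 of 10. In culture, 38 of the 41 small subunit factors, 39 of the 40 factors of the 60S subunit and all 14 exosome genes were called higher.

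Of 11 further RNA polymerase I subunits and factors, 3 were called higher after 5-FU, Polr1d, Tcof1 and Polr1e, and 0 lower. This share was near the 26.7% of all tested genes. The median log2 fold changes of the 11 were 0.17 after 5-FU, −0.13 with nifedipine and 0.55 in culture. With nifedipine 4 were called lower, Tcof1, Taf1d, Polr1d and Polr1e, and 1 higher, where 24.2% of tested genes were called lower and 25.8% higher. In culture 6 were called higher and 1, Taf1b, lower, where 35.8% of tested genes were called higher and 36.1% lower. Tcof1, the gene of treacle, which works with the upstream binding factor, changed by 0.64 ± 0.10 after 5-FU and −0.91 ± 0.08 with nifedipine. Taf1b, of the selectivity factor that recognises the ribosomal DNA promoter, was the one called higher with nifedipine, at 0.32 ± 0.11 (adjusted p = 0.0193). It averaged 51 CPM with nifedipine and 41 CPM in controls. All 5 subunits shared between the polymerases were called higher after 5-FU and in culture, and 4 lower with nifedipine. Their median log2 fold changes were 0.61, −0.43 and 1.19 in the 5-FU, nifedipine and culture comparisons. Of 7 subunits specific to RNA polymerase II, 5 were called higher after 5-FU, 5 lower with nifedipine and 6 higher in culture. Their medians were 0.55, −0.41 and 1.20, against 0.40, −0.49 and 1.10 for the 5 chosen RNA polymerase I genes. Of 11 of RNA polymerase III, 3 were called higher after 5-FU, again near the share of all tested genes. With nifedipine 7 of them were called lower and 1, Polr3gl (0.72 ± 0.21, adjusted p = 0.00843), higher. In culture 9 were called higher and 1, Polr3gl, lower. The medians of these 11 were 0.17, −0.27 and 0.59 in turn.

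Some features of the genes bear on how their reads are counted. By the RefSeq annotation, 7 of the 35 genes (20%) carry snoRNA genes within them, against 2.3% of 12674 tested protein-coding genes. They are Ncl, Nop56, Nop58, Dkc1, Wdr43, Tsr1 and Gnl3, with 19 snoRNAs in all. Of 123 snoRNA features in the tables, 1 had any read, so the snoRNAs themselves were not measured. Another protein-coding gene overlaps 9 of the 35. Tsr1 shares 5314 bases with Srr, whose mean over the libraries was 62.2 CPM, and Bop1 shares 2058 with Scx (1.41 CPM). Bysl shares 359 with Ccnd3, whose mean of 106 CPM was above every value of Bysl, and Wdr12 shares 280 with Carf (40.2 CPM), and the other overlaps were of 52 bases or fewer. The library kit does not mark strand, so reads in the shared bases cannot be told apart.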

How the data were processed

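The deposited tables hold, per the file headers, exon read counts and RPKM values for each feature of 15 libraries. Per the labels' protocols, cDNA of 100 sorted cells was made into Nextera XT libraries. Per the submitters' processing notes the build is mm10. The aligner, counting program and annotation were not given in the sources used here. All tests used the deposited counts. The deposited RPKM values, scaled by the authors to exon length and a read total, served only to recover both. That read total was tried as a library size, and exon reads were 25% to 38.9% of it. Copies of a gene on alternate scaffolds were added up, which took 48737 features to 46123 genes. File starts were changed to count from 1.

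Every comparison had its own fit over all genes in edgeR 4.0.16 (R 4.3.3), using TMM, filterByExpr, a two-sided quasi-likelihood F test and Benjamini-Hochberg adjustment over all tested genes at 0.05. All 35 genes passed the filter. The SE of a log2 fold change is its size over the square root of F. The common biological coefficient of variation was 0.202 for 5-FU, 0.13 for nifedipine and 0.213 for culture. The fit was also run on simulated data with a common spread for all genes and few genes changed, a simpler setting than these data. DESeq2 1.42.0, limma-voom (limma 3.58.1) and other filters, scalings, designs and library sets were alternatives; the one without untreated 2 and 4 was added after seeing the data. No library was a near copy of another of its group; pairs across groups were not compared.

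The 35 genes, the roles and the other gene lists were chosen with earlier results of these data known, so no test was made over a list. Values in every library are given for the RNA polymerase I genes and, in each other role, for the members with the largest and smallest 5-FU change. Nat10 and Bysl were added after their values were seen. From the other lists, genes named are among those called with the smallest p in a direction.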

Additional observations from a re-analysis of the deposited data

Results flagged for a closer look

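In groups of 4 libraries, a value was looked at again when its gap to the nearest other library passed Dixon's critical value. Of 105 gene and group pairs, 6 (5.71%) met this, and chance gives about 5%. Polr1c was at 43.5 CPM in nifedipine 2, against 53.9 to 55.6 CPM in the other nifedipine libraries. Rrn3 was at 135 CPM in nifedipine 4, with the others at 144 CPM. Nop56 was at 191 CPM in 5-FU 1, with the other 5-FU libraries at 165 to 167 CPM, and at 185 CPM in nifedipine 3, with the others at 163 CPM. Bysl was at 29.9 CPM in nifedipine 2, against 23.4 to 24.2 CPM in the others. Gnl3 was at 114 CPM in untreated 3, against 87.2 to 91.4 CPM in the others. All of these genes were called in the same direction in every fit that left out 1 library.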

How the results depend on the processing

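Leaving aside the set without untreated 2 and 4, the alternatives gave 33 to 35 genes called higher after 5-FU and 0 lower, 35 lower with nifedipine and 35 higher in culture, and no gene changed direction. The 5-FU median of 0.71 was 0.91 with library sizes from the RPKM read total, and 0.57 without untreated 2 and 4, a set added after seeing the data. The culture median of 1.41 was 1.65 with that total, 1.27 with a filter at 10 CPM, 1.31 with exon length corrected, 1.36 with all 4 groups in 1 fit, 1.33 with the replicate block and 1.27 without untreated 2 and 4. Leaving out 1 library at a time gave medians of 0.64 to 0.73 for 5-FU, −0.81 to −0.75 for nifedipine and 1.32 to 1.48 for culture. The read total moved the median of all genes by 0.20 (5-FU) and 0.24 (culture), and the share of calls that were higher to 73.7% from 52.9% and to 60.4% from 49.8%; the causes were not tested. Without untreated 2 and 4, 31 genes were higher after 5-FU. In the other settings Rrp9, Polr1c and Nop14 changed their 5-FU call, Nop14 also without untreated 3 and 5-FU 4 together (adjusted p = 0.0929). With the replicate number as a block, 33 genes were higher after 5-FU (Nop14 at adjusted p = 0.0521 was lost), 35 lower with nifedipine and 35 higher in culture. Deviations from the group means were correlated between libraries of the same number. They gave −0.148 to 0.112, 0.0114 to 0.0855 and −0.00387 to 0.0358 in the 5-FU, nifedipine and culture comparisons. Libraries of unlike number gave −0.413 to 0.397 in the 5-FU comparison. Such correlations cannot show whether the numbers pair samples. Depth limits the least-read genes most, such as Nhp2, Rrp9 and Mrto4 with 54, 82 and 92 reads in their lowest libraries.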
